A study of Mus musculus with 43 samples.

Results

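Glial cells of the mouse cerebral cortex were examined here for 10 genes of the bone morphogenetic protein (BMP) pathway, out of 55416 gene rows in each count file. The genes were chosen by name: the ligand gene Bmp7, the receptor genes Bmpr1a, Bmpr1b and Bmpr2, the signal transducers Smad1 and Smad5, and the target genes Id1, Id2, Id3 and Id4. All 10 had a row in the count files of all 43 libraries, though Bmpr1b and Id1 had no count in some. The mice were 3 months old, and Rag2-/- mice, which lack mature T and B lymphocytes, were compared with immunocompetent littermates housed alike. The immunocompetent group, called control, mixed Rag2 +/- and Rag2 +/+ animals. After perfusion with saline and papain digestion of the cortex, cells were caught on antibody-coated dishes (immunopanning) in a fixed order. Microglia were taken first with an antibody to CD45, then oligodendrocyte precursor cells (OPCs) with PDGFRA, oligodendrocytes with GalC and last astrocytes with HepaCAM. Oligodendrocytes were sequenced from 4 control mice (3 male, 1 female) and 4 Rag2-/- mice (2 male, 2 female). OPCs came from 6 control mice (4 male, 2 female) and 5 Rag2-/- mice (3 male, 2 female). Astrocytes and microglia each came from 6 control mice (4 male, 2 female) and 6 Rag2-/- mice (3 male, 3 female). A replicate number names a littermate pair, numbered alike in every cell type. Controls were Rag2 +/+ in pairs 4 and 6 and Rag2 +/- in the others. Oligodendrocyte replicate 6 was thus the only Rag2 +/+ control of that cell type. The mice of a pair were of the same sex except in pair 6, which set a female Rag2-/- mouse beside a male control.

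BMPs are secreted ligands that bring type I receptors (encoded by Bmpr1a and Bmpr1b) together with the type II receptor encoded by Bmpr2. The activated type I receptor phosphorylates SMAD1 and SMAD5, which join SMAD4 and enter the nucleus. Genes of the inhibitor of DNA binding (Id) family are classical direct targets. Id proteins have a helix-loop-helix but no basic DNA-binding region, so they sequester basic helix-loop-helix (bHLH) proteins such as E proteins, and ID2 and ID4 are known to interact with OLIG1 and OLIG2. In the oligodendrocyte lineage BMP signaling is known for holding back differentiation and favoring astrocyte fates.

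The promoters of the Id genes are shown because the levels of the 4 genes were not spread alike over the cell types, as described further on. A link between the promoters and those levels was not tested. RefSeq promoter windows (GRCm38.p6, 250 bases before to 50 after the annotated start) were at hand for 8 of the 10 genes, and Id1 and Bmp7 had no entry. Each window is written 5′ to 3′ on the strand of the gene. Capitals mark, on either strand, GGCGCC, a GC-rich element bound by SMAD1 and SMAD5, CAGAC, a short element bound by SMAD proteins, and TGACG, the core of sites for CREB and ATF factors. The Id2 window lies at chr12:25096043-25096342 on the minus strand, the Id3 window at chr4:136143572-136143871 on the plus strand, and the Id4 window at chr13:48260866-48261165 on the plus strand.
Id2: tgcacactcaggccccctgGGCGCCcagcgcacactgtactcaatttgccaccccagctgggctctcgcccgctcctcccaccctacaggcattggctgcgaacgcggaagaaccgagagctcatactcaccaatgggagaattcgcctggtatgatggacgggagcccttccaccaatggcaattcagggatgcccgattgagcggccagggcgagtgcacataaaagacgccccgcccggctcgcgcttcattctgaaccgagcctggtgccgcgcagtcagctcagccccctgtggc
Id3: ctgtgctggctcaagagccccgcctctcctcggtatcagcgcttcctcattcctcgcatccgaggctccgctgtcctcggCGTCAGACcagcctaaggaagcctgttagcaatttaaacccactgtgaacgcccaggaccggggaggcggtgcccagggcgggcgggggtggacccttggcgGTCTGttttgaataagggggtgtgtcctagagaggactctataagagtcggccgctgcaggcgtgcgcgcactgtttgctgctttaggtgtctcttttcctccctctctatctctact
Id4: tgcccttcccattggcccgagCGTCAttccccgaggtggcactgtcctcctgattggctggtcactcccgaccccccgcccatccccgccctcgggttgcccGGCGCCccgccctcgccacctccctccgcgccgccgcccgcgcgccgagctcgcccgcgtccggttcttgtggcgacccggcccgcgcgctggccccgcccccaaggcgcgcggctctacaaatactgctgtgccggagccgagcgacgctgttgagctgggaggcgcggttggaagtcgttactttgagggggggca

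The Id2 window held 1 match to GGCGCC, and the Id4 window held 1 match to GGCGCC and 1 to TGACG. The Id3 window held no GGCGCC, 2 matches to CAGAC and 1 to TGACG, and in this window the TGACG match overlaps the first CAGAC match. The palindrome GTCTAGAC was in none of the windows of the 8 genes. Among 32841 windows of the same length, 11.87% held GGCGCC, 49.6% held CAGAC, 20.82% held TGACG and 0.21% held GTCTAGAC, so a CAGAC match is common and the other matches less so. Of the other members, Bmpr1a and Bmpr2 each held 1 GGCGCC, Smad1 held 1 TGACG, and Smad5, with 3 annotated starts, held CAGAC and TGACG in the third window and 1 GGCGCC that lies in both the first and the second, which overlap. Bmpr1b also has 3 annotated starts, and the first and the second window each held 1 CAGAC. A match of letters is a description of the window and not evidence of binding.

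Rag2 itself was all but silent in these cells and gave no check of the labels: Rag2-/- libraries held no Rag2 count, and the control libraries held 4 counts in OPCs, 2 in microglia and none elsewhere. Rag2, Id1 and Bmp7 lie on the same chromosome, 2. Depth was 6499417 to 23118497 counts per library (median 10447042). All 8 oligodendrocyte, 8 astrocyte, 8 microglia and 7 OPC markers were highest in their own libraries in control mice. Oligodendrocyte libraries stood apart in the share of counts on mitochondrial genes, 45.8 to 60.1% against 22.5 to 45.1% in astrocytes, 22.4 to 36.7% in OPCs and 6.76 to 11.7% in microglia, and this moves any level scaled by total counts. Levels are therefore given as CPM, counts scaled to a common library size by trimmed mean of M values (TMM) factors, with SD over mice. Markers of other cells were present in the macroglial libraries of control mice. In oligodendrocyte libraries the median OPC marker stood at 12.3% of its own level, the median microglia marker at 7.12% and the median astrocyte marker at 5.55%. In OPC libraries the median astrocyte marker stood at 8.55% and the median microglia marker at 4.61%. The median oligodendrocyte marker stood at 22.1% in astrocyte libraries. The neuron marker Snap25 was at 1107 CPM in oligodendrocyte, 249 CPM in OPC and 106 CPM in astrocyte libraries. In such bulk samples, fewer cells of a type and less RNA per cell cannot be told apart, nor can cell type, the order of panning and the sequencing lane, since libraries of a cell type were pooled on the same lane. The oligodendrocyte library of control replicate 6 had the highest summed astrocyte marker level of the 8 oligodendrocyte libraries (3587 CPM against 1306 to 2604 CPM). It was also the highest of them in summed neuron (3020 CPM), endothelial (41.2 CPM), mural cell (119 CPM) and fibroblast markers (20.3 CPM). The part of RNA from any of these cells in its values was not tested. Where a call or a value named here turns on this library, the value without it is given, and then rests on Rag2 +/- oligodendrocyte controls only.

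The pattern across control glia was plain for most members. Astrocytes had the highest level of Bmpr1a, Bmpr1b, Id1, Id3 and Id4, and microglia the highest Id2. OPCs had the highest mean of Bmp7 and Smad5, but neither was called over astrocytes. Bmpr2 was nearly level. Differences are log2 fold differences (log2FC) ± SE from edgeR's quasi-likelihood test, with p-values adjusted by Benjamini-Hochberg over all genes tested, and a gene is called at adjusted p under 0.05.

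**Figure D1:**
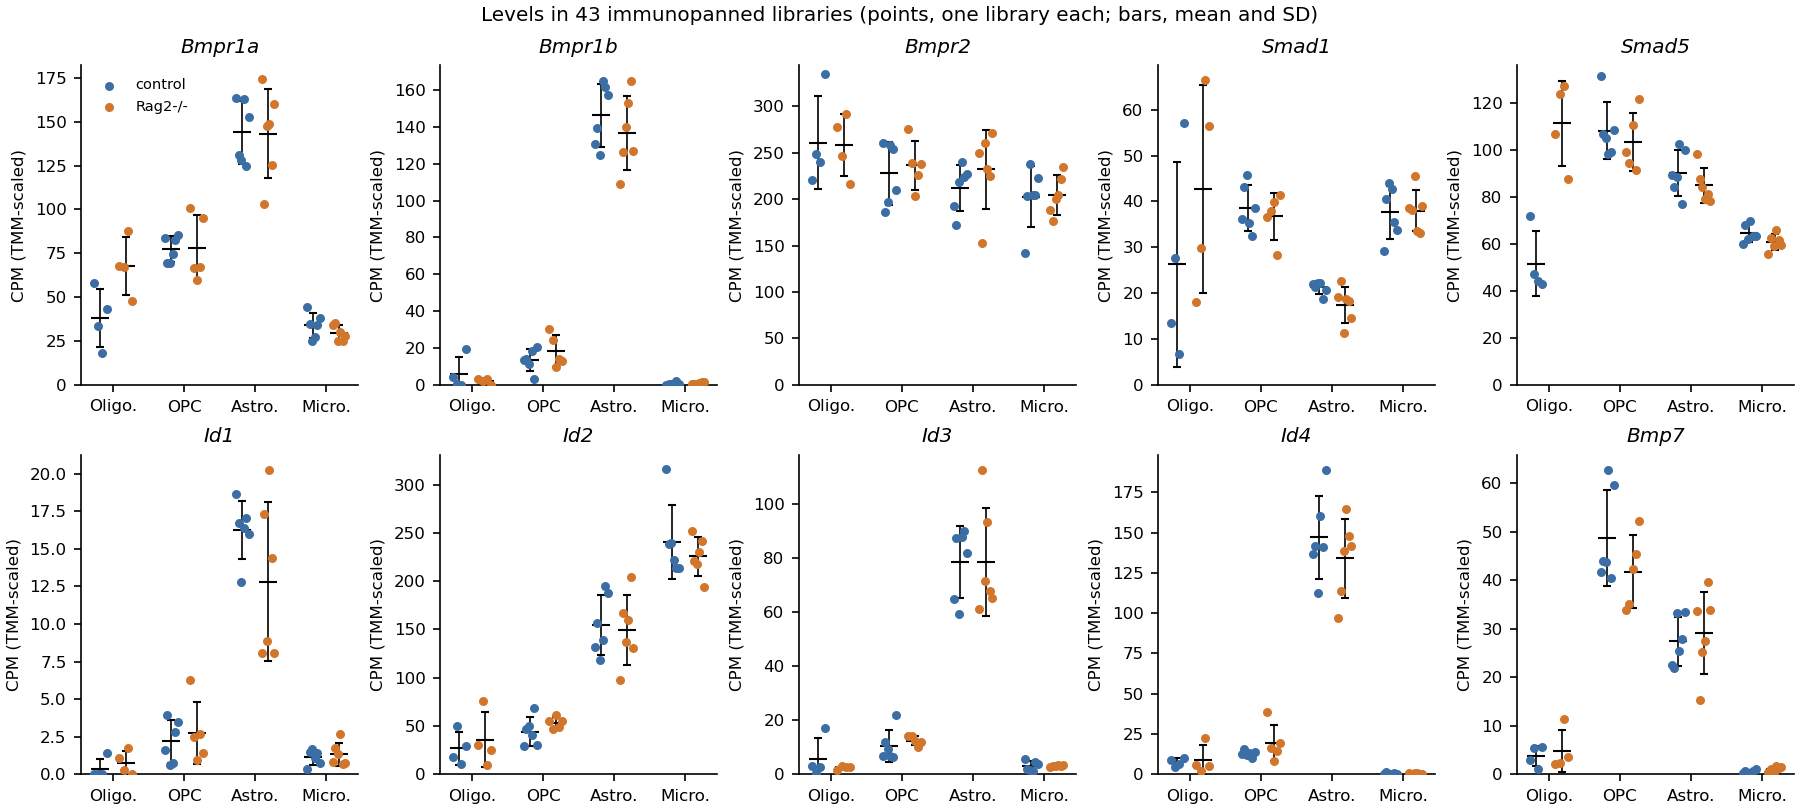
Level of each gene (y axis, TMM-scaled CPM, linear from 0) in oligodendrocytes, OPCs, astrocytes and microglia (x axis), with control mice in blue and Rag2-/- mice in orange. Each point is a library and the bars give the mean and SD. Bmpr1b, Id3 and Id4 are high in astrocytes, Id2 in astrocytes and microglia, and Smad5 in oligodendrocytes is the panel in which the genotypes separate.

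Bmp7, which encodes a secreted BMP (chr2:172709805-172782410, minus strand, GRCm39 as for all gene coordinates that follow), was an OPC and astrocyte transcript. Its level in OPCs of control mice ranged from 40.5 to 62.8 CPM (median 43.8). In astrocytes it ranged from 21.9 to 33.4 CPM (median 26.7). The 4 oligodendrocyte control libraries held 2.86, 5.42, 1.14 and 5.51 CPM, and no microglia control library exceeded 0.999 CPM (16 counts). OPCs exceeded oligodendrocytes by a log2FC of 3.73 ± 0.39 (adjusted p = 1.58e-07, edgeR), and microglia lay below OPCs at −6.45 ± 0.39. The mean in astrocytes was 56.3% of that in OPCs, a difference that was not called (−0.74 ± 0.29, adjusted p = 0.0523, edgeR) but passed with the littermate pair as a block (adjusted p = 0.0485, edgeR), and no control astrocyte library reached the lowest OPC library. In Rag2-/- mice the groups overlapped and the difference was not called (−0.47 ± 0.37, adjusted p = 0.399, edgeR).

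Bmpr1a (chr14:34132687-34225379, minus strand) and Bmpr1b (chr3:141542897-141875323, minus strand) encode the type I receptors that bind BMPs and carry the kinase acting on SMAD proteins. Bmpr1a stepped down from astrocytes to OPCs to the other types. In control mice it ranged from 125 to 163 CPM in astrocytes (median 142), from 69.4 to 85.5 CPM in OPCs (median 78.4) and from 25.2 to 44.6 CPM in microglia (median 34.4), while the 4 oligodendrocyte libraries held 57.9, 33.4, 17.99 and 42.99 CPM. Astrocytes exceeded OPCs by 0.98 ± 0.19 (adjusted p = 0.000319, edgeR) and OPCs exceeded oligodendrocytes by 1.05 ± 0.22 (adjusted p = 0.00104, edgeR), whereas oligodendrocytes and microglia overlapped.

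Bmpr1b was all but restricted to astrocyte libraries. The 6 astrocyte control libraries ranged from 124 to 165 CPM (median 148), against 3.07 to 20.6 CPM in OPCs (median 13.8). Oligodendrocyte control libraries held 4.48, 0.387, 0 and 19.4 CPM, and microglia held at most 1.95 CPM (19 counts). Astrocytes exceeded OPCs by 3.56 ± 0.63 (adjusted p = 0.000102, edgeR). OPCs, at 9.23% of the astrocyte mean, were close to the 8.55% at which the median astrocyte marker stood in the same libraries, and the part of astrocyte RNA in that value was not tested. The oligodendrocyte value rests on control replicate 6: without it the log2FC of OPCs over oligodendrocytes rose from 1.13 ± 0.70 (adjusted p = 0.244) to 2.92 ± 0.69 (adjusted p = 0.00335).

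The type I receptors can be set against each other within a library. Per kilobase of exon, so that the genes can be compared, Bmpr1b made up 53.2 ± 3.85% (SD, n = 6) of the summed Bmpr1a and Bmpr1b level in control astrocytes. Its share was 16 ± 6.52% (n = 6) in OPCs, 10.7 ± 15.6% (n = 4) in oligodendrocytes and 1.94 ± 2.08% (n = 6) in microglia. The oligodendrocyte share rests on control replicate 6, at 33.6%, and without it was 3.08 ± 4.28% (n = 3).

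Bmpr2 (chr1:59802544-59918173, plus strand) encodes the type II receptor, which binds the ligand and activates the type I receptor. It was the only member called in none of the comparisons of cell types. Control means were 261 ± 50.4 CPM (SD, n = 4) in oligodendrocytes, 228 ± 33.9 (n = 6) in OPCs, 212 ± 24.9 (n = 6) in astrocytes and 203 ± 32.7 (n = 6) in microglia, and the 4 groups overlapped. The 6 comparisons gave log2FC from −0.30 to −0.01 in control mice, with adjusted p of at least 0.128 in both genotypes (edgeR). Under scaling by total counts the order turned, with oligodendrocytes lowest and OPCs highest in both genotypes.

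Smad1 (chr8:80065023-80126168, minus strand) and Smad5 (chr13:56850797-56890190, plus strand) encode the receptor-activated SMADs of the BMP branch. Smad1 values in control astrocytes lay below those in OPCs and microglia. Control astrocytes ranged from 18.7 to 22.3 CPM (median 21.7), OPCs from 32.5 to 45.8 (median 37.3) and microglia from 29.2 to 44.1 (median 38.0), with no overlap between astrocytes and either. Oligodendrocyte libraries spread over 13.4, 27.7, 6.82 and 57.2 CPM, the last being replicate 6, without which OPCs (1.26 ± 0.27, adjusted p = 0.00159, edgeR) and microglia (1.30 ± 0.28, adjusted p = 0.000358, edgeR) exceeded oligodendrocytes. Microglia exceeded astrocytes by 0.82 ± 0.30 (adjusted p = 0.0198, edgeR), and the difference between astrocytes and OPCs was called in Rag2-/- mice (−1.01 ± 0.24, adjusted p = 0.00329, edgeR) and narrowly not in controls (−0.77 ± 0.30, adjusted p = 0.0514).

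Smad5 had its highest control mean in OPCs, but OPCs and astrocytes overlapped and their difference was not called. In Rag2-/- mice the highest mean was in oligodendrocytes, but these overlapped OPCs and astrocytes. Scaled by total counts, with or without mitochondrial genes, OPCs had the highest Rag2-/- mean. In control mice Smad5 ranged from 98.4 to 132 CPM in OPCs (median 106), from 77.0 to 103 in astrocytes (median 89.1) and from 59.9 to 70.1 in microglia (median 63.6). The 4 control oligodendrocyte libraries held 72.2, 47.3, 44.5 and 42.8 CPM. Both OPCs (1.06 ± 0.16, adjusted p = 1.80e-05) and astrocytes (0.89 ± 0.15, adjusted p = 8.21e-05) exceeded oligodendrocytes in the edgeR fit, with no overlap. Per kilobase, the Smad5 level exceeded that of Smad1 in the control means of every cell type, 11.7 against 2.32 CPM per kilobase in astrocytes and 6.70 against 2.87 in oligodendrocytes (7.08 against 1.74 without replicate 6).

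The Id genes fell into separate patterns. Id3 (chr4:135870808-135873066, plus strand) and Id4 (chr13:48414558-48419502, plus strand) were astrocyte transcripts, Id1 (chr2:152566218-152579544, plus strand) followed them at a lower level, and Id2 (chr12:25143798-25147282, minus strand) was shared by microglia and astrocytes. The proteins are all inhibitors of bHLH factors.

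Id1 reached 12.8 to 18.7 CPM in control astrocytes (median 16.6). OPCs held 0.611 to 3.95 CPM and microglia 0.318 to 1.64 CPM, while 3 oligodendrocyte control libraries held no Id1 count and replicate 6 held 9 counts (1.38 CPM). Astrocytes exceeded OPCs by 3.02 ± 0.60 (adjusted p = 0.000361, edgeR). The comparison of OPCs with oligodendrocytes (2.49 ± 0.83, adjusted p = 0.0273, edgeR) lost its call without any of control oligodendrocyte replicates 1, 3 or 5 or OPC replicate 6, with adjusted p between 0.0597 and 0.0789. Without control oligodendrocyte replicate 6 it was 7.41 ± 1.17 (adjusted p = 7.99e-05, edgeR), a size that rests on oligodendrocyte libraries with no Id1 count.

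Id2 ranged from 213 to 316 CPM in control microglia (median 230) and from 118 to 195 CPM in astrocytes (median 148), without overlap. OPCs ranged from 28.7 to 68.9 CPM (median 43.3), and oligodendrocytes held 17.5, 49.7, 10.4 and 29.7 CPM. Id2 stood at 18.3% of the microglia mean in OPCs and 11.2% in oligodendrocytes. The median microglia marker stood at 4.61% and 7.12% in the same libraries. The oligodendrocyte library with 49.7 CPM, control replicate 3, had the highest summed microglia markers of the oligodendrocyte controls (1212 CPM). The part of microglia or astrocyte RNA in these values was not tested. Microglia exceeded astrocytes by 0.63 ± 0.26 (adjusted p = 0.0366, edgeR) and OPCs by 2.54 ± 0.27 (adjusted p = 1.96e-08, edgeR). The first of these calls was lost without any of control astrocyte replicates 1 to 4 or control microglia replicates 1 or 4, with adjusted p from 0.0511 to 0.0804 (edgeR). In Rag2-/- mice the same order held, but microglia against astrocytes was not called (0.57, adjusted p = 0.0666) and those groups overlapped. OPCs and oligodendrocytes overlapped, and their difference was not called in either genotype.

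Id3 ranged from 59.3 to 90.2 CPM in control astrocytes (median 84.7), from 6.49 to 21.9 CPM in OPCs (median 8.04) and from 1.33 to 5.56 CPM in microglia (median 2.87). Oligodendrocyte libraries held 2.86, 0.387, 2.65 and 17.3 CPM, and replicate 6 was the high library. Astrocytes exceeded OPCs by 3.00 ± 0.53 (adjusted p = 0.000107, edgeR). OPCs exceeded oligodendrocytes in Rag2-/- mice (2.33 ± 0.25, adjusted p = 3.26e-07, edgeR) with no call in controls (0.81 ± 0.60, adjusted p = 0.333), where leaving out oligodendrocyte replicate 6 gave 2.41 ± 0.55 (adjusted p = 0.00250, edgeR).

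Id4 ranged from 113 to 189 CPM in control astrocytes (median 141) and from 10.0 to 15.4 CPM in OPCs (median 12.8). Oligodendrocyte libraries held 8.96, 4.51, 6.44 and 9.79 CPM, and microglia held at most 1.20 CPM (12 counts). It had the widest span of the 10 genes between astrocytes and microglia (microglia minus astrocytes −8.65 ± 0.39, adjusted p = 5.91e-15, edgeR). At 8.63% of the astrocyte mean in OPCs and 5.05% in oligodendrocytes, Id4 stood about where the median astrocyte marker stood in the same libraries (8.55% and 5.55%).

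Per kilobase, the summed level of the 4 Id genes was 129 ± 19.6 CPM per kilobase in control astrocytes, 71.5 ± 11.4 in microglia, 22.5 ± 4.58 (n = 6 each) in OPCs and 12.7 ± 6.86 (n = 4) in oligodendrocytes. Astrocytes drew on all 4 genes: Id2 gave 34.2%, Id3 33.9%, Id4 24.7% and Id1 7.17% of the sum. In microglia Id2 gave 96.5 ± 1.18%. In OPCs Id2 gave 56.3 ± 13.6% and Id3 25.7 ± 11.6%, and the shares in oligodendrocytes (Id2 60.6 ± 22.4%) varied widely. Without oligodendrocyte replicate 6 the sum there was 9.97 ± 4.94 CPM per kilobase (n = 3). The part of RNA from other cells in the OPC and oligodendrocyte shares was not tested. Among 14721 protein-coding genes ranked per kilobase, Id2 stood at percentile 98.5 in astrocytes and 98.4 in microglia, Id3 at 98.5 and Id4 at 97.7 in astrocytes, whereas Id4 stood at 12.1 in microglia.

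**Figure D2:**
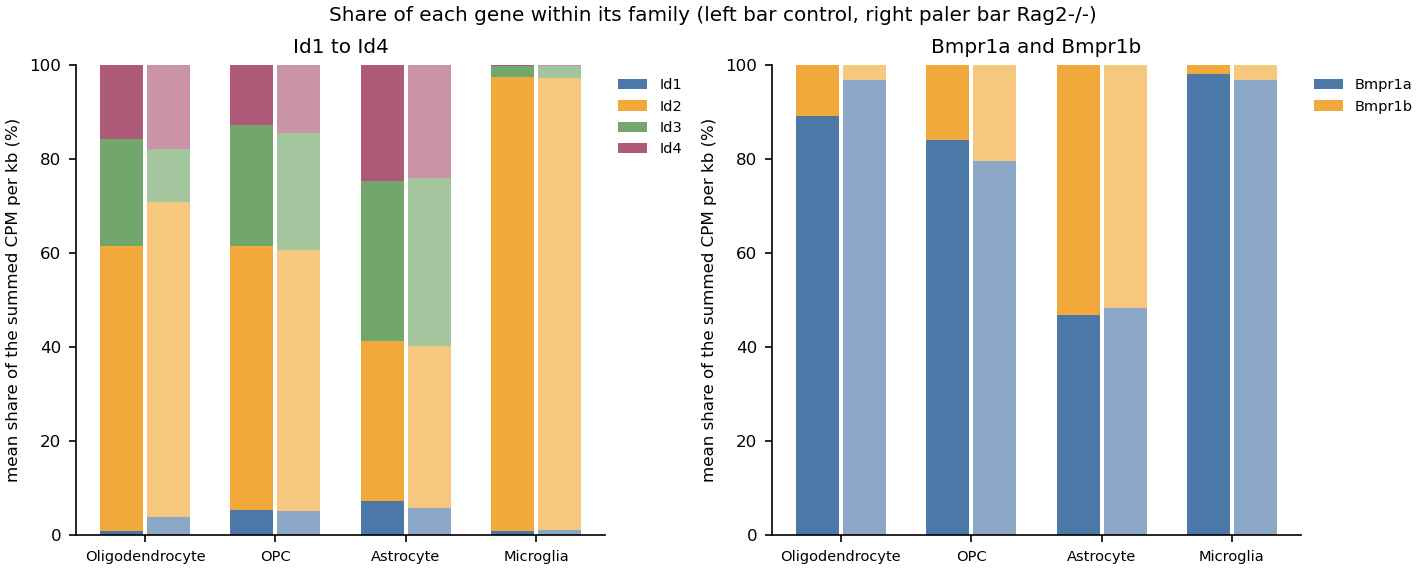
Mean share (y axis, percent of the summed CPM per kilobase) of each Id gene and of each type I receptor gene in the 4 cell types (x axis), with control mice in the left bar and Rag2-/- mice in the right paler bar of each pair. Id2 fills 96.5% of the control microglia bar but 34.2% of the control astrocyte bar, and Bmpr1b passes Bmpr1a only in astrocytes.

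Counted over the members in control mice, 8 of 10 were called higher and none lower in astrocytes than in oligodendrocytes, beside 18.7% of 19368 genes called higher and 19.4% lower. The uncalled pair was Bmpr2 and Smad1. In astrocytes against OPCs 6 were higher and none lower (all genes 14.4% and 16.2%), these being both type I receptors and all 4 Id genes. OPCs against oligodendrocytes gave 4 higher, namely Bmp7, Bmpr1a, Smad5 and Id1, and none lower (all genes 15.2% and 12.4%), but 8 without oligodendrocyte replicate 6. Microglia were lower than astrocytes in 7 members and higher in 2, Id2 and Smad1 (all genes 32.0% and 29.1%). Against OPCs microglia were lower in 6 and higher in Id2 alone (all genes 32.2% and 28.6%), and against oligodendrocytes lower in 3 and higher in 2 (all genes 29.4% and 29.7%), so the last count stands near the background. Without oligodendrocyte replicate 6 the members called in microglia against oligodendrocytes were Id4 and Bmp7, lower, and Id1, Id2 and Smad1, higher. The median log2FC of the members was 2.79 for astrocytes over oligodendrocytes (all genes 0.04), 1.44 for astrocytes over OPCs (−0.05) and −2.97 for microglia over astrocytes (−0.09).

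The same comparisons were made in the Rag2-/- mice, which are other animals. For OPCs against oligodendrocytes 3 members were called (27.8% of 19412 genes), for astrocytes against oligodendrocytes 8 (39.6%), for microglia against oligodendrocytes 5 (59.0%), for astrocytes against OPCs 7 (25.6%), for microglia against OPCs 7 (59.0%) and for microglia against astrocytes 8 (60.1%). The counts for OPCs against oligodendrocytes, for microglia against oligodendrocytes and for microglia against OPCs stand near the background. That for microglia against astrocytes is not far above it. For OPCs against oligodendrocytes the calls were Bmpr1b, Id3 and Bmp7, of which Bmp7 was also called in controls. Smad5, whose genotype difference between cell types is tested further on, differed in sign between the genotypes in some comparisons with oligodendrocytes. Smad5 in microglia lay above oligodendrocytes in controls (0.40 ± 0.15, adjusted p = 0.0283, edgeR) and below them in Rag2-/- mice (−0.81 ± 0.13, adjusted p = 1.83e-05, edgeR). The control call was lost without control microglia replicates 2, 4, 5 or 6 or control oligodendrocyte replicates 3, 5 or 6, with adjusted p from 0.0509 to 0.127 (edgeR). Bmpr1a in OPCs against oligodendrocytes went from 1.05 in controls to 0.19 (adjusted p = 0.518, edgeR) in Rag2-/- mice.

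**Figure D3:**
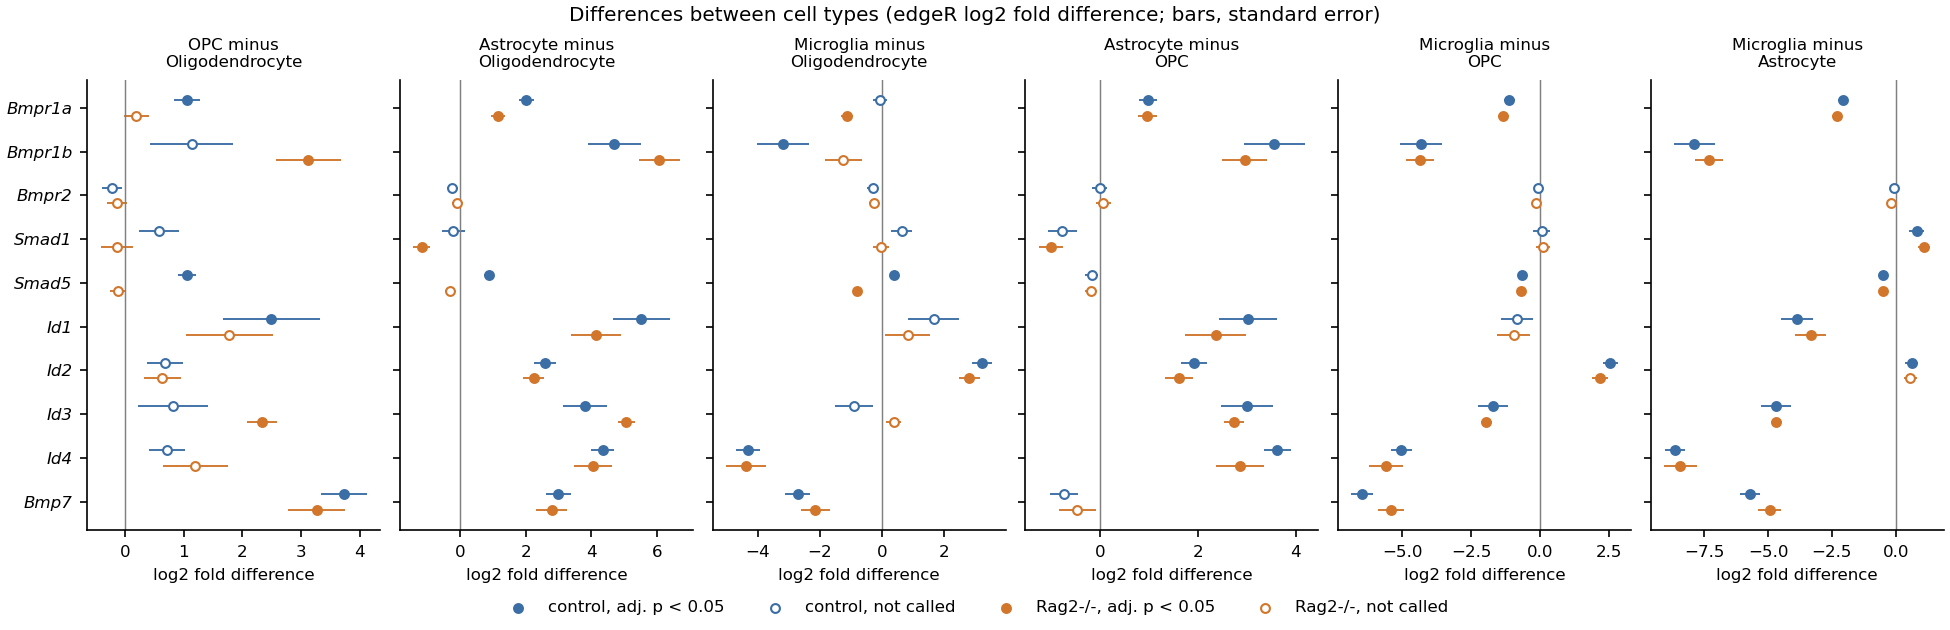
log2 fold difference (x axis, edgeR, bars are SE) of each gene (y axis) in the 6 comparisons of cell types, with control mice in blue and Rag2-/- mice in orange and filled points for adjusted p under 0.05. Bmpr2 sits near 0 in every panel, and Smad5 moves from 1.06 in control to −0.12 in Rag2-/- mice in the panel of OPCs minus oligodendrocytes.

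Whether the absence of lymphocytes changed these genes was asked within each cell type, with sex as a covariate. No member was called by genotype in any cell type. The test could be made for 9 members in oligodendrocytes (Id1 had too few counts), 10 in OPCs, 10 in astrocytes and 7 in microglia (not Bmpr1b, Id4 and Bmp7). Over all genes the same edgeR test called 0% in oligodendrocytes (0 of 13802, with 467 at an unadjusted p under 0.05, and 13 by DESeq2 on the same filter), 0.00592% in OPCs, 0.00679% in astrocytes and 0.00667% in microglia. Sex called no member either, beside 0.0362%, 0.0296%, 0.0407% and 0.0467% of genes in the same order, and the nearest was Id2 in oligodendrocytes, with a log2FC of female minus male of −1.50 ± 0.53 (adjusted p = 0.505).

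In astrocytes the estimates were tight. The 10 members lay between −0.36 ± 0.25 (Id1) and 0.15 ± 0.13 (Bmpr2). Id1 spread more in Rag2-/- astrocytes, with 8.06, 17.3, 8.89, 20.3, 14.4 and 8.06 CPM against 12.8 to 18.7 CPM in controls. Microglia estimates ran from −0.20 ± 0.15 (Bmpr1a) to 0.22 ± 0.48 (Id1). In OPCs the largest was Id4 at 0.60 ± 0.31 (adjusted p = 1.00, edgeR), with 38.3, 16.4, 8.05, 14.4 and 19.3 CPM in Rag2-/- mice and 10.0 to 15.4 CPM in controls, so the groups overlapped. The highest of these, OPC Rag2-/- replicate 1, also had the highest OPC values of Bmpr1b (30.2 CPM) and Id1 (6.26 CPM) and the highest summed astrocyte markers of all OPC libraries (5783 CPM, against 2081 to 3078 CPM in control OPCs). That library was also the highest OPC library in summed endothelial markers (128 CPM, against 33.4 to 81.1 CPM in control OPCs). The same held for mural cell markers (387 CPM, against 88.8 to 287 CPM in control OPCs). The part of astrocyte, endothelial or mural cell RNA in its values was not tested. Across littermate pairs in OPCs, Id2 was higher in the Rag2-/- mouse in 5 of 5 (0.27 ± 0.18) and Bmp7 lower in 5 of 5 (−0.23 ± 0.17), without a call for either. Summed astrocyte markers were also higher in the Rag2-/- OPC library in 4 of 5 pairs, and their part in the Id2 values was not tested.

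**Figure D4:**
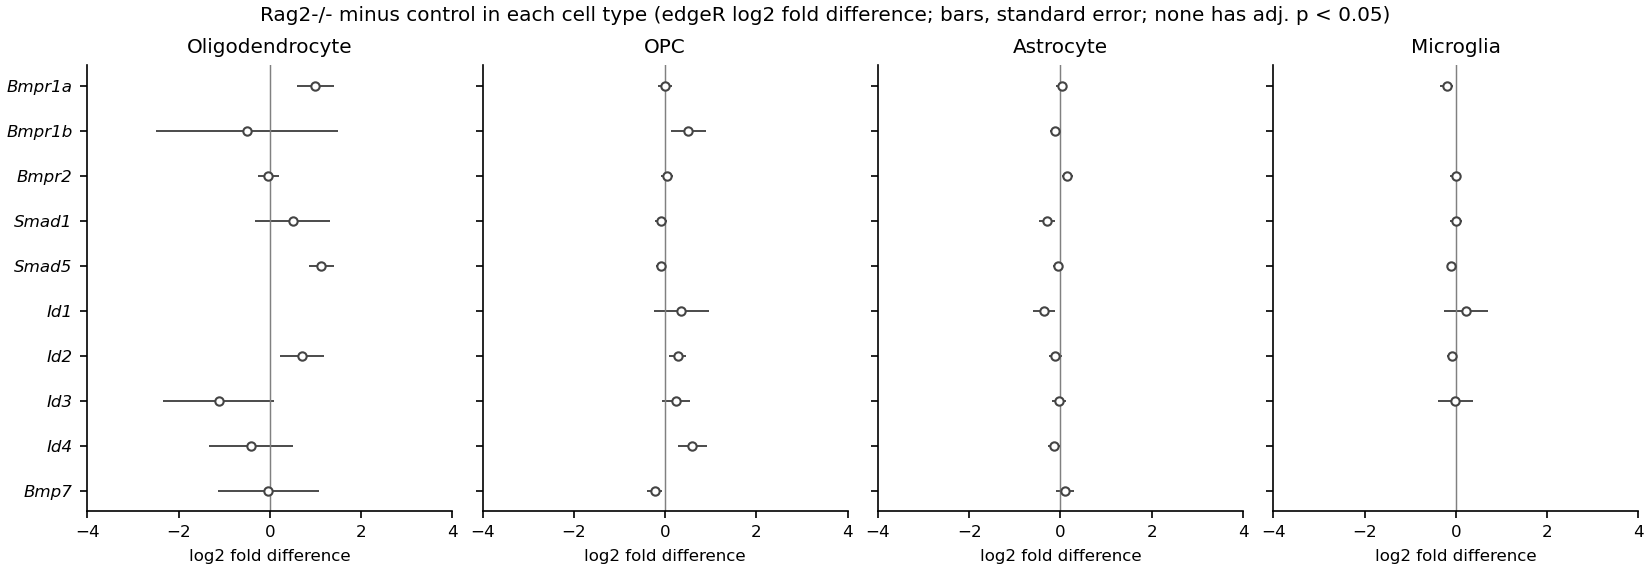
log2 fold difference of Rag2-/- minus control (x axis, edgeR, bars are SE) for each gene (y axis) that passed the filter in oligodendrocytes, OPCs, astrocytes and microglia. No point has adjusted p under 0.05, and Smad5 at 1.13 ± 0.28 and Bmpr1a at 1.00 ± 0.40 in oligodendrocytes lie farthest from 0 relative to their SE.

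Smad5 in oligodendrocytes was the member that stood out. Control pairs 1, 3, 5 and 6 held 72.2, 47.3, 44.5 and 42.8 CPM, and their Rag2-/- littermates held 107, 124, 127 and 87.8 CPM. In pair 6 the Rag2-/- mouse was female and the control male. All 4 Rag2-/- libraries lay above all 4 control libraries, and the level was higher in 4 of 4 pairs. Such a separation of the genotypes was seen in 1 of 9 members tested in oligodendrocytes, beside 2.31% of all genes tested there. In the other cell types it was seen in no member, beside 0.403% of genes in OPCs, 0.122% in astrocytes and 0.133% in microglia.

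The log2FC of Smad5 in oligodendrocytes was 1.13 ± 0.28 (adjusted p = 0.998, edgeR), so the within-cell-type test did not call it. DESeq2 with its own filter, on all genes, gave 1.13 with adjusted p = 0.0198, and DESeq2 on the edgeR gene set gave adjusted p = 0.111. Leaving out any library kept the log2FC between 1.02 and 1.29. In OPCs (−0.09 ± 0.11), astrocytes (−0.06 ± 0.11) and microglia (−0.10 ± 0.10) the estimates were near 0. Within pairs the Rag2-/- mouse had more Smad5 in 2 of 5 OPC pairs and 3 of 6 astrocyte pairs, and less in 6 of 6 microglia pairs (55.8 to 65.8 CPM against 59.9 to 70.1 CPM, overlapping).

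Whether the genotype difference itself varied between cell types was tested in a fit over all 43 libraries. Smad5 was called (adjusted p = 0.00142, edgeR), ranking 2 of 21368 genes, of which 53 or 0.248% were called (34 with the littermate pair as a block, in which Smad5 kept adjusted p = 0.00375). It was called in all 8 fits that left out an oligodendrocyte library, with adjusted p from 0.000119 to 0.0119. This fit takes libraries of the same pair number in different cell types as separate samples. It also uses a shared estimate of the spread of a gene over all cell types. The SD of Smad5 was 13.8 CPM in control and 18.1 CPM in Rag2-/- oligodendrocytes, against 3.45 to 12.5 CPM in the other groups. The p-value of this test thus does not rest on the spread between oligodendrocyte libraries alone. Summed OPC and astrocyte markers in the oligodendrocyte libraries overlapped between the genotypes. OPC markers of pairs 1, 3, 5 and 6 were at 390, 774, 457 and 239 CPM in controls. Their Rag2-/- littermates were at 620, 874, 497 and 228 CPM. Astrocyte markers were at 1306 to 3587 CPM in controls and 1506 to 2604 CPM in Rag2-/- mice. Each sum was higher in the Rag2-/- library in pairs 1, 3 and 5 and lower in pair 6. The part of OPC and astrocyte RNA in the Smad5 values was not tested. The mitochondrial share was 45.8 to 58.3% in controls and 48.5 to 60.1% in Rag2-/- mice.

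No other member was called in that fit. Bmpr1a came next (adjusted p = 0.204, edgeR). Its control oligodendrocyte libraries held 57.9, 33.4, 17.99 and 42.99 CPM, and the Rag2-/- littermates of those pairs held 67.7, 67.2, 87.9 and 48.1 CPM, higher in 4 of 4 pairs but with overlapping groups. The log2FC in oligodendrocytes was 1.00 ± 0.40 (adjusted p = 0.998, edgeR). Id2 in oligodendrocytes was at 0.70 ± 0.48, and Id3 at −1.12 ± 1.22, which became 0.29 ± 1.07 without control replicate 6. The levels of all 4 Id genes in oligodendrocytes overlapped between genotypes.

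**Figure D5:**
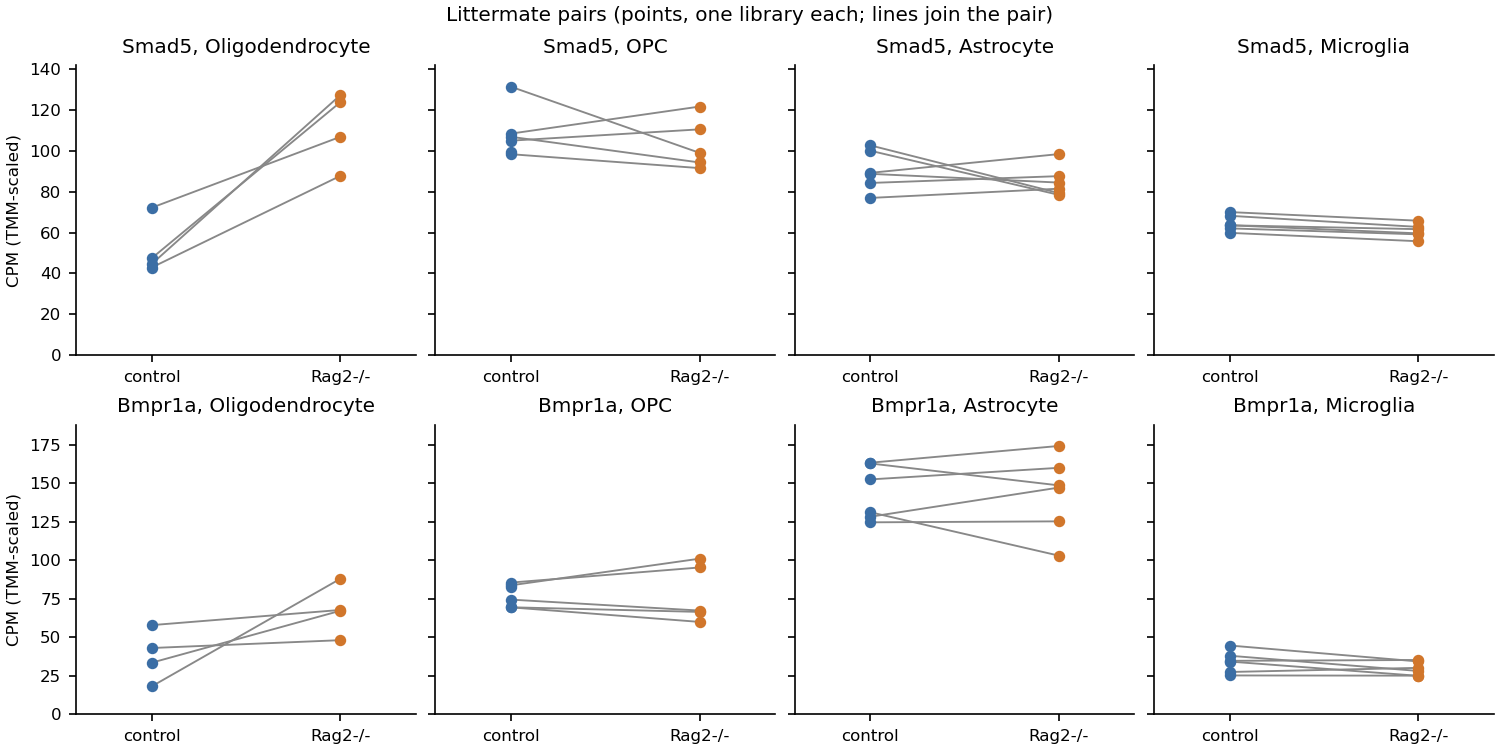
Smad5 and Bmpr1a levels (y axis, TMM-scaled CPM) in control and Rag2-/- mice (x axis) of each littermate pair, with a line joining each pair that has both libraries, in the 4 cell types. Both genes are higher in the Rag2-/- mouse of 4 of 4 oligodendrocyte pairs, while Smad5 is higher in 2 of 5 OPC pairs, 3 of 6 astrocyte pairs and 0 of 6 microglia pairs.

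The rest of the pathway was read from 6 lists of 59 genes. None of these genes was called by genotype, by sex or by the test of a difference between cell types in the genotype effect (smallest adjusted p in that test 0.18, edgeR, for Bmp6). Counts of cell type calls are given for control mice, beside the shares of all genes above. Of 13 other BMP ligand genes only 4 passed the filter in the fit of cell types in control mice, and the 3 best expressed per kilobase were low: Bmp4 reached 9.74 ± 3.39 CPM in OPCs, Bmp6 5.32 ± 1.26 CPM in astrocytes, and Bmp2 10.97 ± 13.7 CPM in oligodendrocytes. Bmp6 was higher in OPCs than in oligodendrocytes (4.40 ± 0.86, adjusted p = 0.000502, edgeR), and the ligand list gave 2 lower and none higher in astrocytes against OPCs.

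Of 5 other receptor genes 4 were tested. Acvr1, a further type I receptor for BMPs, was not called between any cell types (21.2 to 32.7 CPM). Acvr2a, an activin and BMP type II receptor, was higher in OPCs (32.7 ± 7.64 CPM) than in oligodendrocytes (14.9 ± 3.93 CPM) and astrocytes (17.1 ± 4.61 CPM), and Acvr2b was lower in microglia than in every other type. The other Smads leaned to microglia, with 4 of 6 higher and 2 lower than in astrocytes. Smad7, the inhibitory SMAD, was at 105 ± 10.8 CPM in microglia, 48.1 ± 19.01 in oligodendrocytes, 15.6 ± 6.25 in astrocytes and 12.3 ± 4.52 in OPCs. Smad3, of the transforming growth factor β branch, was at 103 ± 12.2 CPM in microglia against 19.2 to 30.5 CPM elsewhere, and the shared partner Smad4 at 63.2 ± 13.6 CPM against 32.2 to 37.8 CPM.

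Extracellular antagonists and co-receptors leaned away from microglia, with 6 of 11 tested lower and 2 higher than in astrocytes. Chrdl1, a secreted BMP antagonist, was at 104.1 ± 19.3 CPM in astrocytes, 12.2 ± 5.00 in OPCs, 1.79 ± 0.246 in oligodendrocytes and 0.679 ± 0.619 in microglia. The BMP co-receptor gene Rgma was at 151 ± 16.5 CPM in astrocytes and 44.2 ± 9.70 in OPCs, and Twsg1, an extracellular modulator, at 46.7 ± 7.42 CPM in OPCs and 11.5 ± 5.26 in microglia. Among 8 intracellular regulators, 5 were higher and 3 lower in microglia than in astrocytes. The SMAD corepressor genes Skil (982 ± 130 CPM) and Ski (352 ± 71.2 CPM) were highest in microglia, against at most 81.8 and 115 CPM elsewhere, and Tob1, which encodes an antiproliferative protein that restrains BMP signaling, was lowest there (17.9 ± 4.55 CPM against 80.1 to 124 CPM).

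The bHLH list, partners and relatives of the Id proteins, leaned away from microglia. In microglia 9 of 10 were lower than in OPCs and 9 of 10 lower than in astrocytes, with none higher, and OPCs had 7 higher and none lower than oligodendrocytes. Olig1 and Olig2, which specify the oligodendrocyte lineage, were at 548 ± 202 and 187 ± 42.0 CPM in OPCs and at 70.3 ± 22.5 and 38.5 ± 5.11 CPM in astrocytes. Hes5, a Notch target, was at 59.2 ± 20.5 CPM in astrocytes and 11.9 ± 3.69 CPM in OPCs.

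As a description, members were set beside the 14721 protein-coding genes by Pearson r of log2(CPM + 1) over the 43 libraries, which share 4 cell types, so that r mostly follows the cell types. Id4 was most like Aqp4 (r = 0.985), the water channel of astrocyte endfeet, then Msi2 and Tspan7. Bmpr1b was most like Slc1a3 (r = 0.971), the glutamate transporter GLAST, then Slc25a18 and Pax6. Id3 was most like S1pr1 (r = 0.968), then Slc1a3 and Pla2g7, and Id1 most like Slc7a11 (r = 0.939), then S1pr1 and Glud1. Id2 was most like Ftl1 (r = 0.964), which encodes ferritin light chain, then Irak2 and Pdlim4. Bmpr1a was most like Fmc1 (r = 0.945), then Dpf3 and Slc1a4. The genes with flatter profiles had lower values: Smad5 with Brd8 (r = 0.843), Zik1 and Fkbp14, Bmpr2 with Usf3 (r = 0.776), Ncoa6 and Phc3, and Smad1 with Pa2g4 (r = 0.773), Blmh and Kpna1. Among the members themselves r was 0.96 for Bmpr1b and Id3 and 0.94 for Bmpr1b and Id4, and −0.13 for Id2 and Id4.

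Some counts could be shared with other genes. Exons overlapped those of another counted gene over 13.37% of the exonic bases of Id2, 10.31% of Id4, 9.47% of Bmpr1a and 1.65% of Smad5, and not at all in the other members. Whether counting used the strand is not given in the sources used here. Of 50-base windows of the canonical transcript, at most 0.92% (Smad5) had an identical copy elsewhere in the genome.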

How the data were processed

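The authors aligned reads to GRCm39 with STAR 2.7.8a and counted them per gene with HTSeq, per the labels, and deposited raw whole-number counts, 1 file per library. Amplified cDNA multiplies molecules before counting, so low counts vary by more than counting error. Reads assigned to no gene (33.5 to 52.0% of a library) were left out. Gene names and coordinates came from GENCODE M39 (54749 of 55416 IDs named). From the counts, edgeR 4.0.16 in R 4.3.3 (TMM factors, filterByExpr with a minimum count of 10 and total of 15, quasi-likelihood test, Benjamini-Hochberg adjustment, two-sided, threshold 0.05) was fitted to all genes. Genotype was tested per cell type with sex as covariate, cell types within each genotype with sex as covariate and a shared spread, and the difference in genotype effect over all 43 libraries. The study's own test, DESeq2 (here 1.42.0), was an alternative, as were DESeq2 size factors, no filter, total counts with and without mitochondrial genes, a littermate block and leaving out each library. The labels give the pairs. Littermates deviated together, with a mean r of 0.103 to 0.165 within pairs and −0.187 to −0.108 between pairs, and no libraries were duplicates (smallest chi-square per gene 8.18).

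The 10 members and the lists were chosen with earlier results of these data known. The text names all members, the 3 genes of each list with the highest mean CPM per kilobase in control mice, any list gene called by genotype or sex, and the 3 genes most like each member, which for Bmp7 are not reported here. Levels are CPM on TMM-scaled library sizes, and CPM per kilobase uses the union of exonic bases. Simulated data were put through the genotype fit within oligodendrocytes and within astrocytes only, with changes larger than that of Smad5 in oligodendrocytes. The fits of cell types and the fit over all libraries were not tried in this way. Promoters came from RefSeq tables of GRCm38.p6, and gene coordinates are GRCm39. A comparison of protein sequences was planned, but no protein table was used here. Within a cell type each library is a separate mouse, and p-values of the genotype tests measure the spread between mice. The dishes were used in series on a cell suspension, so libraries of different cell types can come from the same mouse. Without the littermate block, the fits of cell types take these as separate samples.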

Additional observations from a re-analysis of the deposited data

Results flagged for a closer look

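Dixon's criterion flags about 1 in 20 groups by chance where values are normally spread, a rate that skewed or low CPM values need not follow. In 10 of 80 groups of a member, cell type and genotype, the highest or lowest library lay far from the others by this criterion. In oligodendrocytes these were Bmp7 in Rag2-/- replicate 5 (11.3 CPM, 72 counts, others 2.14 to 3.63), Id1 in control replicate 6 (1.38 CPM, 9 counts, others 0), Id3 in control replicate 6 (17.3 CPM, others 0.387 to 2.86) and Smad5 in control replicate 1 (72.2 CPM, others 42.8 to 47.3). In OPCs they were Id3 in control replicate 6 (21.9 CPM, others 6.49 to 11.9) and Smad5 in control replicate 1 (132 CPM, others 98.4 to 109). In control microglia they were Bmpr2 in replicate 1 (142 CPM, others 204 to 238), Id2 in the same library (316 CPM, others 213 to 239), Bmpr1b in replicate 5 (1.95 CPM, 19 counts, others at most 0.62465) and Id4 in replicate 2 (1.20 CPM, 12 counts, others 0.125 to 0.512). The control of pair 1 was thus the high library of Smad5 in oligodendrocytes and in OPCs, and the control of pair 6 that of Id3 in both.

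Smad5 differed between cell types in its genotype effect (adjusted p = 0.00142, edgeR), with 1.13 ± 0.28 in oligodendrocytes, higher in 4 of 4 pairs, and −0.10 to −0.06 in the other 3 types.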

How the results depend on the processing

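Scaling changed the cell type comparisons, and filters and tools the number of genes called by genotype or sex. Scaling by total counts shifted the median log2FC of all genes in control mice by 1.06 for OPCs and 0.83 for microglia over oligodendrocytes. It then called 10930 genes (10242 higher, 688 lower) for control OPCs against oligodendrocytes in place of 2942 higher and 2409 lower, and 5581 higher and 1408 lower without mitochondrial genes. In Rag2-/- mice it called 10889 genes (10254 and 635 against 3261 and 2141), or 5607 and 1292 without mitochondrial genes. Other splits moved likewise: in control mice astrocytes over oligodendrocytes 6535 and 2101 (TMM 3619 and 3767), microglia over oligodendrocytes 8833 and 3907 (5745 and 5697), astrocytes over OPCs 1602 and 5982 or 1851 and 5155 without mitochondrial genes (2782 and 3142), and microglia over OPCs 3671 and 8309 without mitochondrial genes (5545 and 6242). In Rag2-/- mice they were 6481 and 2193 (3966 and 3722), 9163 and 3664 (5949 and 5504), 1189 and 5343 or 1451 and 4423 (2265 and 2705), and 3583 and 8139 (5242 and 6218).

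Members called for OPCs against oligodendrocytes went from 4 to 10 with total counts, 7 without mitochondrial genes and 7 with no filter in control mice, and from 3 to 10, 7 and 6 in Rag2-/- mice. For microglia against control oligodendrocytes they went from 5 to 9 with total counts. Signs turned with total counts in control mice for OPCs against oligodendrocytes in Bmpr2 (0.89) and Smad4 (0.82), and for microglia against oligodendrocytes in Bmpr1a (0.77) and Bmpr2 (0.58). In Rag2-/- mice they turned for OPCs against oligodendrocytes in Bmpr2 (0.89), Smad1 (0.92), Smad5 (0.89), Smad4 (0.83), Rgma (0.98), Ski (0.94) and Tob1 (0.89), for astrocytes against oligodendrocytes in Bmpr2 (0.45), for microglia against oligodendrocytes in Bmpr2 (0.59), Smad1 (0.85), Smad5 (0.041) and Acvr2a (0.70), and for astrocytes against OPCs in Bmpr2 (−0.44). The log2FC of Hes5, Microglia against Oligodendrocyte in control mice, ranged from −2.58 to 0.98 when each library was left out, the last without Oligodendrocyte control replicate 1.

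For genotype, genes called without a filter on low counts were 14 for oligodendrocytes, 90 for OPCs, 30 for astrocytes and 9 for microglia. DESeq2 called 13 in oligodendrocytes and 3 in OPCs on filtered genes, and 205, with 1 member, 5, and in microglia 3 on all genes. For sex the counts were 99, 72, 118 and 25 without a filter, and with DESeq2 146 in oligodendrocytes, 17 in astrocytes and 11 in microglia on filtered genes and 432, 13 in OPCs, 19 and 11 on all genes. For the genotype difference between cell types, 1011 genes including 2 members, Smad5 and Bmpr1b, were called without a filter. The causes were not tested.

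With the littermate pair as a replicate block, sex called 1 gene in oligodendrocytes and 19 in astrocytes, and the difference between cell types called 34 genes in place of 53. The block called Bmp7 between control astrocytes and OPCs and changed no other call of a member. Leaving out each library gave 3 to 5 genes for sex in oligodendrocytes, 1 to 2 for genotype in microglia and 29 (without Oligodendrocyte Rag2-/- replicate 5) to 158 (without Oligodendrocyte control replicate 1) for the difference between cell types. It gave 3 to 8 members for OPCs against oligodendrocytes in control mice and 3 to 5 in Rag2-/- mice. The order of cell types was the same under all 4 scalings in both genotypes for Bmpr1b, Id1, Id2, Id4 and Bmp7. Counts were low for Id1 in oligodendrocytes (0 to 11 per library) and, in microglia, for Id1 (2 to 34), Bmpr1b (0 to 24), Id4 (1 to 12) and Bmp7 (1 to 21).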
